A study of Bos taurus with 9 samples.

Results

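The genes described here are the DNA replication and G1/S genes, a list of 59 symbols covering origin licensing and firing, the replication fork, deoxynucleotide synthesis, the copying of chromatin and DNA methylation, and the entry into S phase. Of these, 52 had a probe set annotated to that symbol alone, out of 9155 genes with such a probe set on the array, and the probe set with the highest mean over all arrays stood for each gene. All 52 lay above the filter on dim probe sets. The other 7 (MCM2, MCM10, GINS1, GINS2, RFC1, POLE and TIPIN) had no probe set annotated to them alone and were not analysed here. The list was not chosen on measured values by its rule, but it was drawn up with earlier results of these data known.

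The cells came from the nucleus pulposus, the soft centre of the intervertebral disc, of the tails of young calves and were grown in DMEM with fetal bovine serum. They had received salt to an osmolality of 500 mOsm/kg for 24 h (3 cultures), salt to the same osmolality for 5 h (3 cultures), or no added salt (control, 3 cultures). RNA from each of the 9 cultures was hybridised to a one-colour Affymetrix bovine array, and the values are PLIER intensities on a linear scale. The labels call the cultures biological replicates 1 to 3 but do not say that they came from separate animals, so the p-values take in no more than the spread among these 9 cultures. The labels also do not say that cultures of the same number belong together, as the replicate pairs and the block below assume. The controls carry no time, so time in culture and salt cannot be told apart, and the same 3 control arrays serve both times.

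Before S phase, the origin recognition complex, CDC6 and CDT1 load the MCM helicase on replication origins, and CDC7, CDC45 and the GINS complex then turn it into an active fork. At the fork, the clamp loader RFC places the sliding clamp PCNA, which holds the polymerases delta and epsilon. Many of these genes are transcribed by E2F factors once cyclin E and its kinase have released them from RB, so that their mRNA is abundant in cycling cells and low in resting ones. Nucleus pulposus cells divide little in the adult disc and divide readily in serum.

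After 24 h in salt the replication genes were lower as a group, and the salt 5 h cultures showed no such fall. Of the 52 genes, 25 were lower in salt 24 h than in control and 0 were higher (limma, Benjamini-Hochberg adjusted p under 0.05 over all probe sets tested), a share of 48.1%, where 4.32% of all 18012 probe sets tested were called lower and 4.28% higher. Taken one probe set to a gene, 5.65% of 7916 genes were called lower. The median log2 change of the 52 genes was -0.93 in salt 24 h against control, while the median of all probe sets was 0.02. The change was negative for 49 genes and positive for PRIM1, RPA1 and ORC6, of which none was called. In 24 genes the mean intensity in salt 24 h was at or under 50% of that in control.

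The 3 salt 24 h arrays all lay below the 3 control arrays for 37 of the 52 genes, against 13.5% of all probe sets. Within replicate numbers, 44 genes were lower in all 3 pairs and 2 were higher in all 3. Of all 18012 probe sets, 5313 (29.5%) were lower in all 3 pairs and 5999 were higher in all 3. The median change of the 52 genes was -0.78, -0.95 and -0.96 in replicate pairs 1, 2 and 3. With the replicate number as a block, limma called 40 genes lower and 0 higher, where it called 17.5% of all probe sets lower, and all 25 genes called without the block stayed among them. Among the refits that each left out 1 array, the count of 25 was 7 without control replicate 2, 8 without salt 24 h replicate 1, 10 without control replicate 3, 14 without salt 24 h replicate 3 and 16 without salt 5 h replicate 1. The calls over all probe sets fell in the same refits, to 149, 138, 191, 449 and 446 lower in that order, against 779 with all arrays. Without the filter on dim probe sets, the 6 genes MCM3, MCM4, MCM6, CDC45, TK1 and CCNE1 lost their calls, with adjusted p-values of 0.0501 to 0.0591. In the refits without 1 array the median stayed between -1.01 and -0.74. Called in all 9 refits that each left out 1 array were CDC6, RFC2, POLE2, FEN1, RRM2, CCNE2 and CDCA7. In a culture of many cells, fewer cycling cells and less of these RNAs per cell cannot be told apart.

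**Figure D1:**
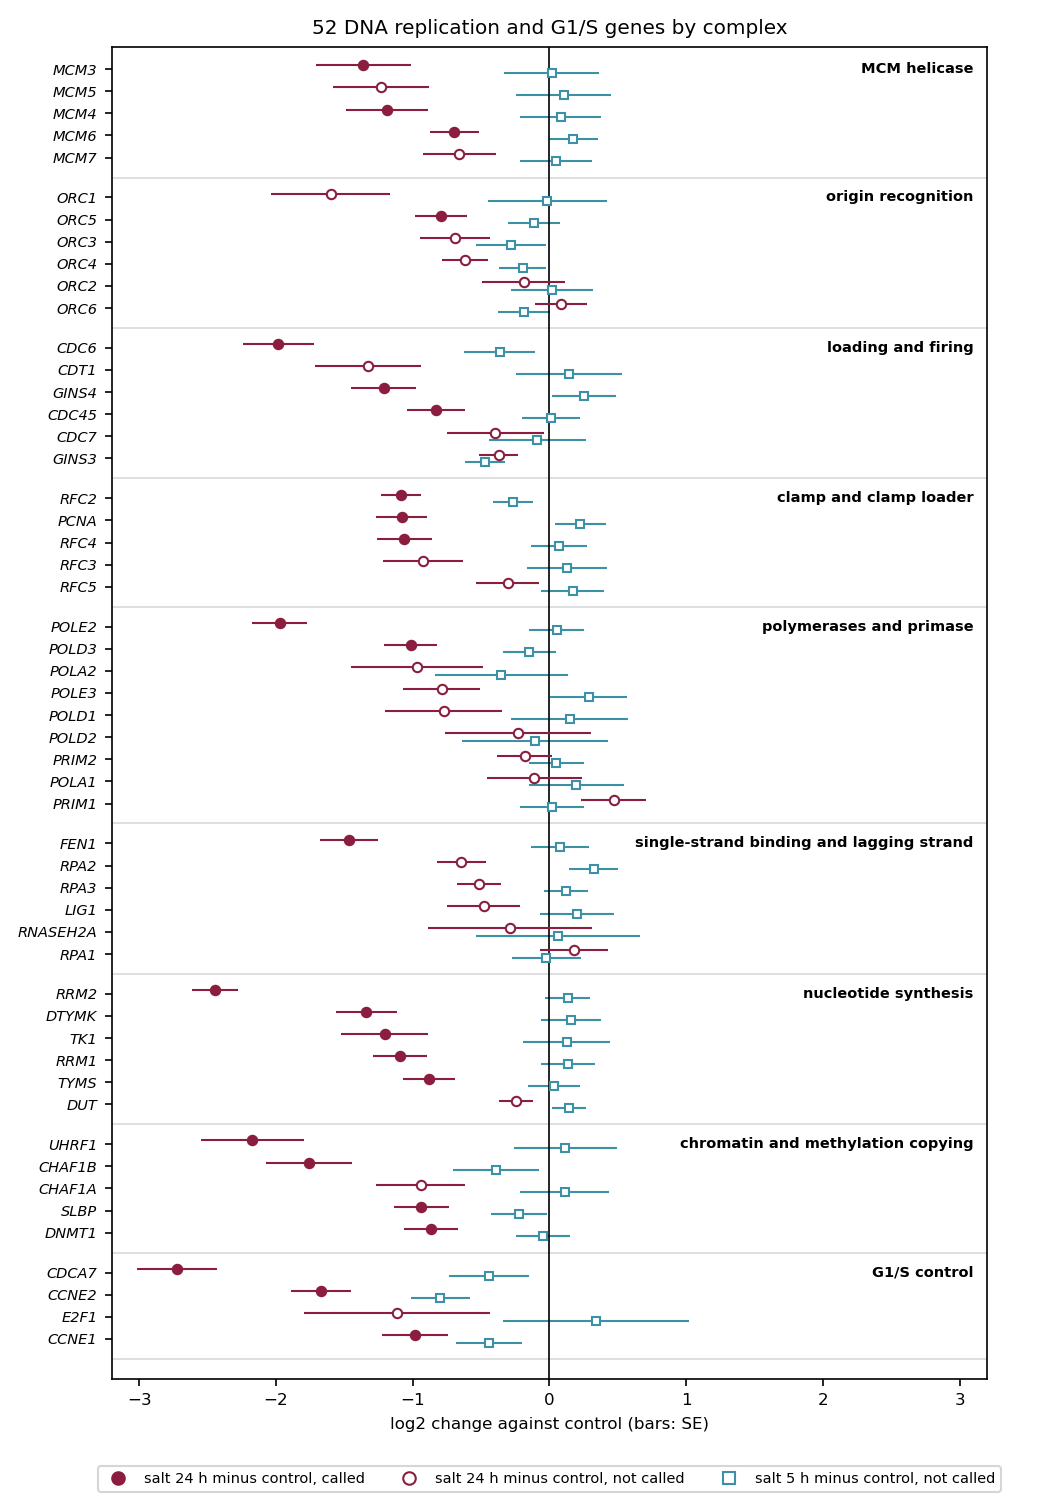
log2 change (x axis) of each of the 52 genes against control, by complex, for salt 24 h (circles, filled where called) and salt 5 h (squares, none called), with bars of 1 SE. The salt 24 h points lie to the left of 0 for 49 genes, and the salt 5 h points lie on both sides of 0, 33 of them to the right.

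All 5 measured MCM genes, whose products form the ring helicase of the fork, were lower in salt 24 h than in control in every replicate pair, and MCM3, MCM4 and MCM6 were called. MCM4 had intensities of 818.0, 1157 and 603.9 in salt 24 h, 2022, 2562 and 1599 in salt 5 h and 1595.5, 2769 and 1580 in control replicates 1, 2 and 3. The salt 24 h arrays all lay below the control arrays, and replicate 2 was the highest in each group. Its log2 change in salt 24 h against control was -1.19 ± 0.30 (SE, adjusted p = 0.0441). MCM3 stood at 518.5, 774.6 and 353.8 in salt 24 h and 1154, 1981 and 1121.5 in control, a mean of 38.7% of control (log2 change -1.36 ± 0.35, adjusted p = 0.0457). MCM6 fell least of the called members, with a log2 change of -0.70 ± 0.18 (adjusted p = 0.0461) and a mean of 1484 ± 246 in salt 24 h against 2423 ± 499 in control (SD, n = 3 each). MCM5 averaged 236 ± 68.4 in salt 24 h and 579 ± 199 in control, a log2 change of -1.23 ± 0.35 that missed the threshold without the block (adjusted p = 0.0639) and passed it with the block (adjusted p = 0.000228). MCM7 likewise passed only with the block (log2 change -0.66 ± 0.26, adjusted p = 0.168 without it and 0.00178 with it). Averaged over all its probe sets, MCM3 changed by -0.61 and MCM6 lost its call too (adjusted p = 0.0808 and 0.191). The other MCM3 probe set in that average lay below the filter on dim probe sets. A second MCM6 probe set gave -0.93 (adjusted p = 0.407 without the block and 0.000322 with it). The calls of MCM3 and MCM4 held in 3 of the 9 refits without 1 array, and that of MCM6 in 1.

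The 6 subunits of the origin recognition complex, which marks the sites where the helicase is loaded, gave unlike values. ORC5 was called, at 113.2, 135.7 and 137.0 in salt 24 h, 191.8, 244.7 and 211.8 in salt 5 h and 194.9, 228.9 and 285.7 in control (log2 change -0.79 ± 0.19, adjusted p = 0.0363), a call that held in 2 of the 9 refits without 1 array. ORC1, the subunit whose level is known to follow the cell cycle in human cells, showed the greatest change of the 6. Its intensities were 28.9, 37.4 and 17.1 in salt 24 h, 118.7, 200.4 and 57.6 in salt 5 h and 80.8, 200.9 and 89.3 in control, so that each salt 24 h array lay below every array of the other groups. Its control arrays differed among themselves by more than the salt 24 h arrays did, and the log2 change of -1.60 ± 0.44 gave an adjusted p of 0.056 without the block and 0.000444 with it. With a pseudocount of 64 the ORC1 change was -0.98, and centring the arrays or quantile normalization brought its adjusted p to 0.0413 and 0.0389. ORC3 and ORC4 had all salt 24 h arrays below all control arrays and were called with the block (adjusted p = 0.00419 and 0.00784). ORC2 and ORC6 were not called in either fit. ORC6 read 423.8, 373.9 and 331.5 in salt 24 h and 329.5, 423.0 and 314.3 in control, with overlapping arrays and a log2 change of 0.08 ± 0.19. The log2 value of ORC1 minus that of ORC6 on the same array was -3.39 to -2.87 in salt 24 h and -1.84 to -1.02 in control, without overlap. This and the other pairs of genes set against each other within an array below, 6 in all, were chosen after their values were seen, so they carry no test, and only the change in the difference can be read, since levels of different probe sets are not comparable.

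CDC6, the loader that binds the origin complex to bring in the helicase, was among the genes with the lowest share of control. Its intensities were 19.3, 16.8 and 15.9 in salt 24 h, 65.9, 132.1 and 71.8 in salt 5 h and 88.1, 152.6 and 113.6 in control replicates 1, 2 and 3. The salt 24 h values lay close together near the level of the filter on dim probe sets (an intensity of 17.1), at a mean of 14.7% of control and far below every array of the other groups. The log2 change was -1.98 ± 0.26 (adjusted p = 0.00591), or -1.15 with a pseudocount of 64, and a second probe set of the gene gave -1.58 (adjusted p = 0.0239). CDT1, its partner in loading, had 115.3, 114.7 and 85.0 in salt 24 h and 182.6, 492.0 and 255.5 in control. All salt 24 h arrays lay below all control arrays, with a wide control group (log2 change -1.33 ± 0.39, adjusted p = 0.0711 without the block and 0.0027 with it).

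Of the factors that fire the loaded helicase, GINS4 and CDC45 were called. GINS4 averaged 82.9 ± 12.1 in salt 24 h and 218 ± 61.1 in control (log2 change -1.21 ± 0.24, adjusted p = 0.0193), and CDC45 averaged 96.1 ± 18.3 in salt 24 h and 185 ± 41.1 in control (log2 change -0.83 ± 0.21, adjusted p = 0.0461). The CDC45 call held in 0 of the 9 refits without 1 array, and that of GINS4 in 5. The CDC45 call was also lost with the arrays centred (adjusted p = 0.0666), with quantile normalization (0.0635), with a pseudocount of 64 (0.0507), without the filter (0.0591) and in the fit to the 6 arrays compared (0.0864). GINS3, another subunit of the same complex, had 84.0, 92.8 and 88.2 in salt 24 h, 78.2, 77.6 and 88.8 in salt 5 h and 118.3, 118.5 and 120.0 in control. Its salt 24 h and salt 5 h arrays overlapped each other and lay below the control arrays, whose spread was small. The log2 change of its brightest probe set in salt 24 h was -0.37 ± 0.14 (adjusted p = 0.154), and a second GINS3 probe set gave -1.05 (adjusted p = 0.0273). With the block both GINS3 probe sets were called lower (adjusted p = 0.0302 for the brightest and 0.000422 for the second). Within an array, GINS4 minus GINS3 on the log2 scale was -0.20 to 0.052 in salt 24 h and 0.29 to 1.06 in control. This difference rests on the brightest GINS3 probe set, and the second, at -1.05, changed nearly as much as GINS4. CDC7, the kinase that starts firing, was not called in either fit (log2 change -0.40 ± 0.35, adjusted p = 0.598).

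**Figure D2:**
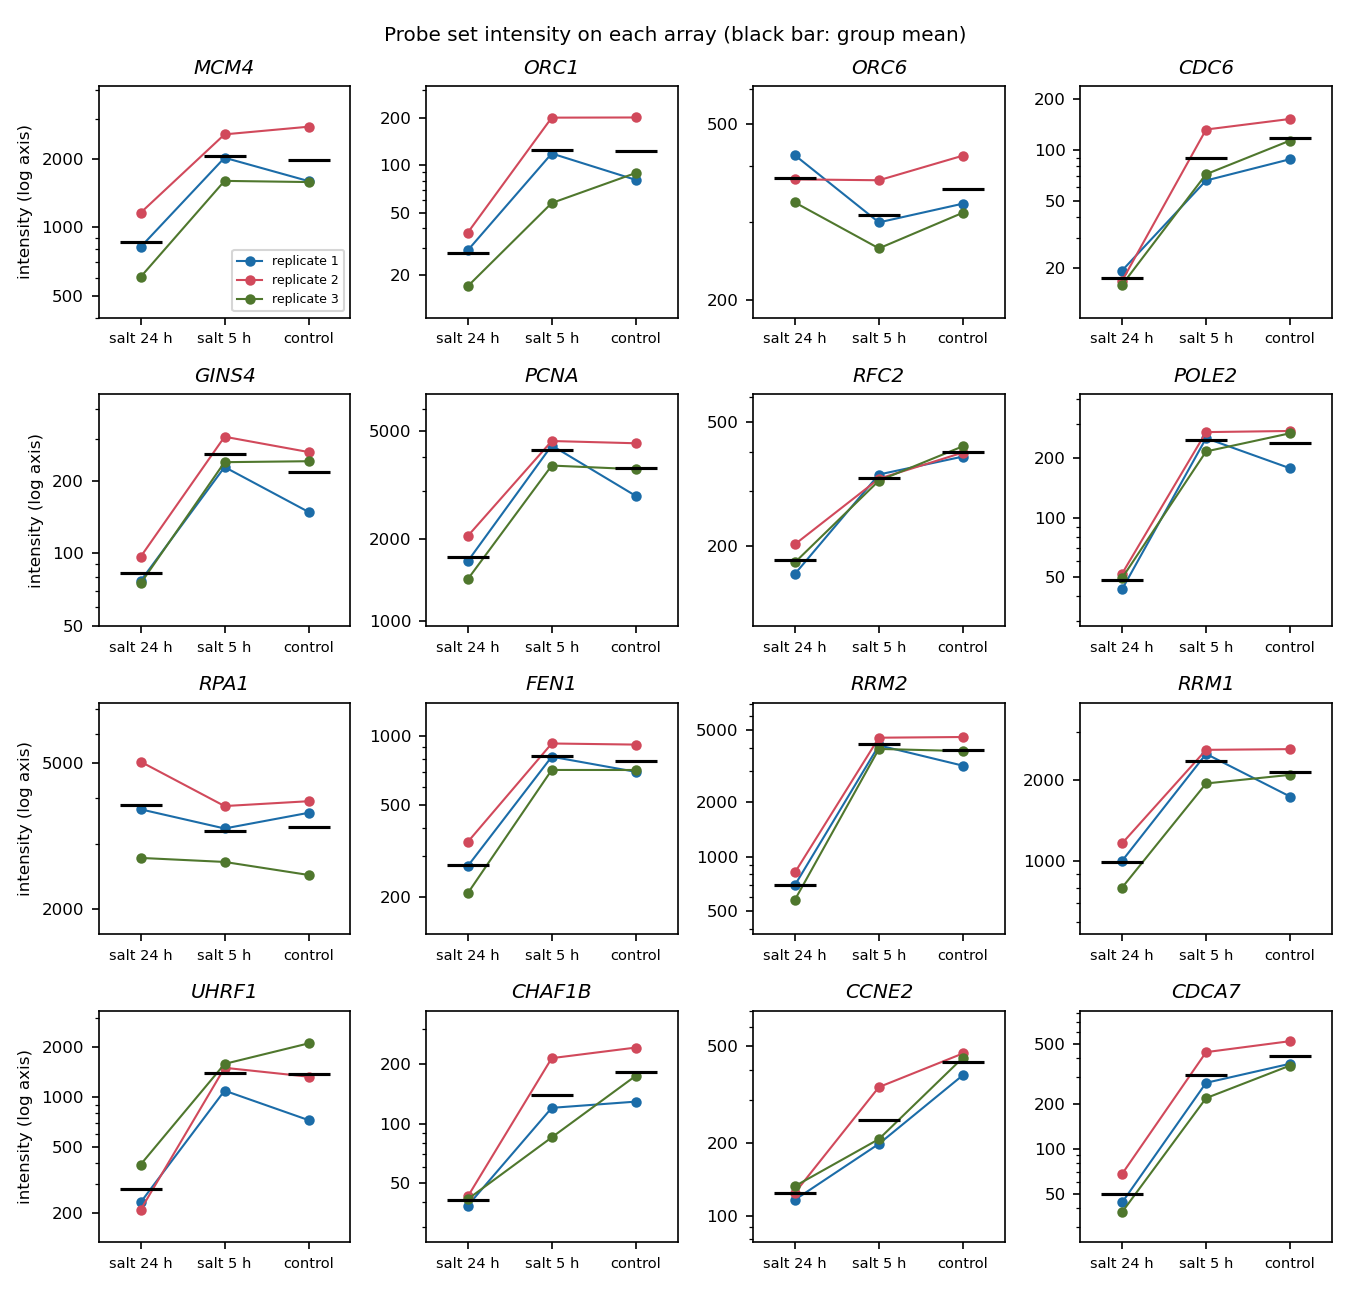
Probe set intensity on a log axis on each array for 16 of the genes, with salt 24 h, salt 5 h and control from left to right, lines joining arrays of the same replicate number and black bars at the group means. In 14 panels the salt 24 h points lie below all control points, and in those of ORC6 and RPA1 the groups overlap.

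PCNA, the sliding clamp, read 1660, 2053 and 1426 in salt 24 h, 4406.5, 4576.5 and 3720 in salt 5 h and 2880.5, 4491 and 3608 in control. Every salt 24 h array lay below every array of both other groups, at 46.8% of the control mean (log2 change -1.08 ± 0.19, adjusted p = 0.0141). Of the 4 measured subunits of the clamp loader RFC, RFC2 and RFC4 were called. RFC2 had 163.4, 203.3 and 177.9 in salt 24 h, 339.9, 329.5 and 324.8 in salt 5 h and 387.9, 399.5 and 418.5 in control, with little spread in any group. Its salt 5 h arrays also all lay below the control arrays, with a log2 change of -0.27 ± 0.14 that was not called (adjusted p = 0.858). The change in salt 24 h was -1.09 ± 0.14 (adjusted p = 0.00583), and that of RFC4 was -1.06 ± 0.20 (adjusted p = 0.0189). RFC3 was called with the block alone (log2 change -0.92 ± 0.29, adjusted p = 0.0912 without it and 0.00092 with it). RFC5 was called in neither fit, with 637.8, 910.0 and 532.6 in salt 24 h and 699.3, 1027 and 822.2 in control and overlapping arrays. On the same array, RFC2 minus RFC5 on the log2 scale was -2.08 to -1.50 in salt 24 h and -1.33 to -0.82 in control. The calls of PCNA and RFC4 held in 7 and 5 of the 9 refits without 1 array.

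Among the 9 measured subunits of the replicative polymerases and the primase, 2 fell and 0 rose. POLE2, the second subunit of polymerase epsilon, which copies the leading strand, showed the greatest change of these, with 43.4, 52.1 and 49.5 in salt 24 h, 253.0, 271.7 and 216.8 in salt 5 h and 178.1, 275.3 and 268.0 in control. Every salt 24 h array lay far below every array of the other groups, which overlapped each other. Its log2 change was -1.97 ± 0.20 (adjusted p = 0.00308), at 20.1% of the control mean. POLD3, a subunit of polymerase delta, averaged 173 ± 23.8 in salt 24 h and 366 ± 61.9 in control (log2 change -1.01 ± 0.19, adjusted p = 0.0184), a call kept in 6 of the 9 refits without 1 array and lost when its probe sets were averaged (adjusted p = 0.207). POLE3, a histone-fold subunit of polymerase epsilon, had a smaller change of -0.79 ± 0.28 (adjusted p = 0.127, and 0.000887 with the block), and POLE2 minus POLE3 within an array was -3.18 to -2.39 in salt 24 h and -2.14 to -1.12 in control. POLA2 and POLD1 were also called with the block alone, and in both the salt 24 h and control arrays overlapped, with replicate 3 low in all groups. POLA2 read 45.5, 84.5 and 22.3 in salt 24 h and 99.4, 155.2 and 73.7 in control, lower within each replicate number, with log2 changes of -0.91, -0.77 and -1.23 (mean -0.60 with a pseudocount of 64; adjusted p = 0.279 without the block and 0.00158 with it).

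The primase subunits and the catalytic subunit of polymerase alpha, which together start each new strand with an RNA and DNA primer, were not called in either fit. PRIM1 had 87.8, 131.6 and 72.5 in salt 24 h, 62.6, 60.2 and 72.7 in salt 5 h and 49.2, 82.9 and 63.3 in control, the highest positive change among the 52 genes (log2 change 0.47 ± 0.23, adjusted p = 0.279). It was higher in salt 24 h in all 3 replicate pairs, though the arrays overlapped. POLA1 averaged 549 ± 223 in salt 24 h and 591 ± 225 in control, with replicate 3 the highest array of each group, and PRIM2 averaged 349 ± 97.6 in salt 24 h and 389 ± 31.6 in control. POLD2 was low on replicate 3 of every group, at 591.2, 480.8 and 241.8 in salt 24 h and 641.9, 701.9 and 248.0 in control, with a log2 change of -0.23 ± 0.53.

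FEN1, the nuclease that trims the flaps of Okazaki fragments on the lagging strand, was the called member of its group of 6. It read 271.9, 346.4 and 207.0 in salt 24 h, 815.2, 930.9 and 713.6 in salt 5 h and 700.4, 920.6 and 713.3 in control, with every salt 24 h array far below the arrays of the other groups. The log2 change was -1.46 ± 0.21 (adjusted p = 0.00728). The 3 subunits of RPA, the protein that coats single-stranded DNA, gave unlike values. RPA1 had 3736, 5039 and 2752.5 in salt 24 h and 3654.5, 3931 and 2473 in control, with overlapping arrays and a log2 change of 0.18 ± 0.25. RPA2 and RPA3 were lower in all 3 pairs and were called with the block alone, with log2 changes of -0.64 ± 0.18 (adjusted p = 0.062 without the block, 0.00515 with it) and -0.52 ± 0.16 (adjusted p = 0.0837 without it, 0.0132 with it). LIG1, the ligase that seals the fragments, and RNASEH2A, the catalytic subunit of the ribonuclease that removes RNA from DNA, were not called in either fit. RNASEH2A was low on replicate 3 of every group, with 809.4, 735.7 and 254.8 in salt 24 h and 799.0, 1046.5 and 337.7 in control.

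Of the 6 genes of deoxynucleotide synthesis, 5 fell and 0 rose. RRM2, the small subunit of ribonucleotide reductase, which makes deoxynucleotides and is known to be made in S phase, had 697.2, 818.6 and 578.0 in salt 24 h, 4135.5, 4560 and 3952 in salt 5 h and 3193, 4601 and 3845 in control. The salt 24 h arrays lay far below both other groups, which overlapped each other. The log2 change was -2.45 ± 0.17 in salt 24 h against control (adjusted p = 0.000765), which held place 5 among the falls of all 18012 probe sets (place 11 with a pseudocount of 1 and place 4 with one of 64). RRM1, the large subunit, which is made through more of the cell cycle, averaged 990.5 ± 183 in salt 24 h and 2133 ± 430.4 in control, a log2 change of -1.09 ± 0.20 (adjusted p = 0.015). Within an array, RRM2 minus RRM1 on the log2 scale was -0.52 to -0.46 in salt 24 h and 0.83 to 0.88 in control, a change of -1.35 with little spread in either group.

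The 3 enzymes of the list that make thymidine nucleotides each fell. DTYMK, which phosphorylates thymidylate, read 254.2, 266.2 and 189.7 in salt 24 h and 538.3, 786.5 and 555.0 in control (log2 change -1.34 ± 0.22, adjusted p = 0.0123), and the call held in 8 of the 9 refits without 1 array. TK1, the thymidine kinase of S phase, averaged 681 ± 249 in salt 24 h and 1563 ± 472 in control (log2 change -1.21 ± 0.32, adjusted p = 0.0498), just within the threshold and called in 2 of the 9 refits. TYMS, which makes thymidylate from deoxyuridylate, averaged 778 ± 133 in salt 24 h and 1446 ± 248 in control (log2 change -0.88 ± 0.19, adjusted p = 0.0267), called in 3 of them, and averaged over its probe sets it changed by -0.51 (adjusted p = 0.0673). The other TYMS probe set in that average lay below the filter on dim probe sets. RRM1 was called in 6 of the 9 refits. DUT, the dUTPase that supplies deoxyuridylate, was the exception, with 3495, 3772 and 3380 in salt 24 h and 3466, 4743.5 and 4504 in control, overlapping arrays and a log2 change of -0.24 ± 0.13 (adjusted p = 0.301).

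Of the 5 genes that copy chromatin and DNA methylation behind the fork, 4 fell. UHRF1, which reads hemimethylated DNA and brings in the maintenance methyltransferase, had 233.0, 210.2 and 393.1 in salt 24 h, 1093, 1499.5 and 1582 in salt 5 h and 727.0, 1326 and 2102 in control. The control arrays spread widely, with replicate 3 the highest, yet the lowest of them lay above the highest salt 24 h array. The log2 change was -2.17 ± 0.38 (adjusted p = 0.014), and a second UHRF1 probe set gave -2.14 (adjusted p = 0.0174). DNMT1, that methyltransferase, averaged 538 ± 48.3 in salt 24 h and 1004 ± 215 in control (log2 change -0.86 ± 0.20, adjusted p = 0.0319). CHAF1B, a subunit of the histone chaperone CAF-1, read 38.5, 42.8 and 41.5 in salt 24 h, 120.0, 213.9 and 85.1 in salt 5 h and 129.0, 241.9 and 174.1 in control, 22.5% of the control mean in salt 24 h (log2 change -1.76 ± 0.32, adjusted p = 0.0149). CHAF1A, the large subunit, passed with the block alone (log2 change -0.94 ± 0.32, adjusted p = 0.114 without it and 0.000735 with it). SLBP, which binds the stem loop of histone mRNAs, averaged 745 ± 148 in salt 24 h and 1446 ± 306 in control (log2 change -0.94 ± 0.20, adjusted p = 0.0269). Without 1 array, UHRF1 was called in 7 of the 9 refits, CHAF1B in 6, SLBP in 5 and DNMT1 in 3.

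CDCA7, a target of E2F and MYC in human cells whose product works with the remodeller HELLS, had the greatest change of the 52 genes, except with a pseudocount of 64, where RRM2 did. It read 43.7, 67.8 and 37.7 in salt 24 h, 275.1, 441.0 and 217.4 in salt 5 h and 368.9, 522.2 and 358.8 in control, so the mean in salt 24 h was 11.9% of that in control. The log2 change of -2.72 ± 0.29 (adjusted p = 0.00372) held place 3 among the falls of all 18012 probe sets, place 3 with a pseudocount of 1 and place 6 with one of 64. CCNE2, a cyclin E that drives the G1/S step with its kinase, read 116.4, 124.4 and 132.5 in salt 24 h, 198.0, 339.7 and 207.2 in salt 5 h and 380.4, 467.8 and 449.2 in control. The 3 groups did not overlap, with salt 5 h between the others (log2 change in salt 24 h -1.67 ± 0.22, adjusted p = 0.00543). CCNE1, the other cyclin E, averaged 44.5 ± 4.28 in salt 24 h and 104 ± 12.2 in control, a smaller change of -0.98 ± 0.24 (adjusted p = 0.0389) that was called in 2 of the 9 refits without 1 array and was -0.63 with a pseudocount of 64. Within an array, CCNE2 minus CCNE1 on the log2 scale was 1.10 to 1.35 in salt 24 h and 1.73 to 2.11 in control.

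E2F1, the transcription factor that activates many of these genes, read 55.6, 68.4 and 15.1 in salt 24 h, 191.0, 275.2 and 48.3 in salt 5 h and 113.7, 229.8 and 43.8 in control. The groups overlapped, with replicate 3 low in each, and without the block the log2 change of -1.11 ± 0.68 (-0.72 with a pseudocount of 64) was not called (adjusted p = 0.391). Within replicate numbers its log2 change was -0.86, -1.54 and -0.94, and the block gave an adjusted p of 0.00104. The same low replicate 3 was seen in POLD2 and RNASEH2A, and a high one in UHRF1, POLA1 and ORC2.

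**Figure D3:**
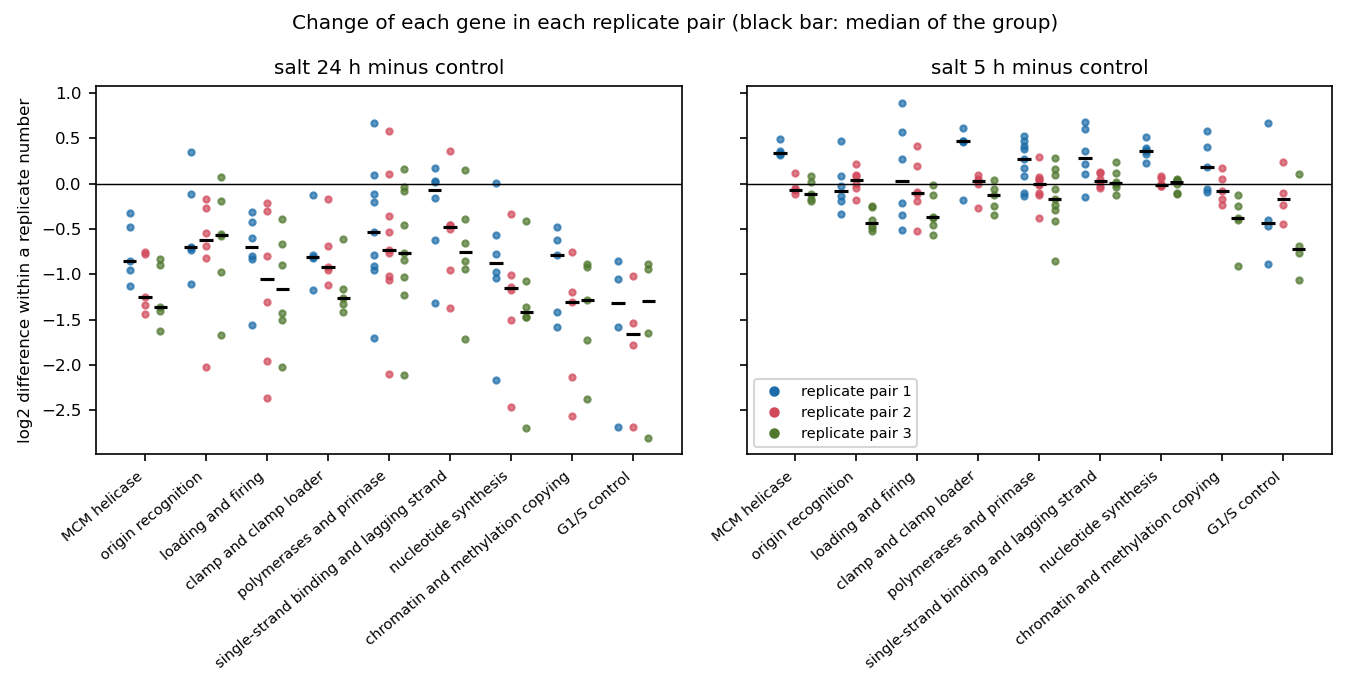
log2 difference (y axis) of each gene within a replicate number, by complex, for salt 24 h minus control (left) and salt 5 h minus control (right); points are genes, colours are replicate pairs 1 to 3 and black bars are the medians. The left panel lies mostly below 0 in all 3 pairs, with medians over the 52 genes of -0.78, -0.95 and -0.96, and in the right panel pair 1 lies mostly above 0 (median 0.32) and pair 3 mostly below it (median -0.15).

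After 5 h in salt, limma called 0 of the 52 genes in either direction, where it called 0.250% of all probe sets lower and 0.233% higher. Unadjusted p-values under 0.05 were found for 2 genes, CCNE2 and GINS3, both lower, while 4.50% of all probe sets were lower at that level, so the count is no higher than the background. The median log2 change was 0.05, with 33 changes positive and 19 negative. Of the 25 genes called lower in salt 24 h, 15 had a positive change in salt 5 h. The salt 5 h arrays all lay below the control arrays for CCNE2, GINS3 and RFC2, and all above for RPA2, against 6.60% of all probe sets all below and 4.04% all above.

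The pairs of salt 5 h did not run the same way. The median change of the 52 genes was 0.32 in pair 1, -0.01 in pair 2 and -0.15 in pair 3. Control replicate 1 was the lowest of the controls over these genes, with a median of 0.11 above the mean of 9 arrays on the log2 scale, against 0.61 and 0.23 for control replicates 2 and 3. With the replicate number as a block, 2 genes were called lower and 0 higher, where 3.41% of all probe sets were called lower. These were CCNE2 (log2 change -0.80 ± 0.22, adjusted p = 0.237 without the block and 0.0155 with it) and GINS3 (log2 change -0.47 ± 0.14, adjusted p = 0.327 without it and 0.0432 with it). CCNE2 averaged 248 ± 79.3 in salt 5 h and 432 ± 46.0 in control, and it was called lower without the block when salt 5 h replicate 2 was left out.

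Salt 24 h was also set against salt 5 h directly. The log2 change then uses no control array, but the spread behind the p-values was estimated from all 9 arrays. Of the 52 genes, 31 were lower in salt 24 h and 0 higher, where 6.15% of all probe sets were called lower and 8.01% higher, and the median log2 change was -0.87. With each array centred on its median, 34 genes were called lower and 0 higher, while the calls over all probe sets turned to 1515 lower and 925 higher, against 1108 lower and 1443 higher on the deposited scale. The salt 24 h arrays all lay below the salt 5 h arrays for 36 genes, against 14.3% of all probe sets. With the block 43 were called lower, where 19.6% of all probe sets were. The count without it came to 12 without salt 5 h replicate 1, 13 without salt 24 h replicate 1, 14 without salt 5 h replicate 2 and 18 without salt 24 h replicate 3. Over all probe sets, 370, 390, 557 and 747 were called lower in these refits, against 1108 with all arrays. RRM2 had a log2 change of -2.58 ± 0.17 (adjusted p = 0.00154), the greatest fall of all 18012 probe sets with a pseudocount of 16 or 64 and place 5 with a pseudocount of 1.

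Against both control and salt 5 h, 24 genes were called lower in salt 24 h. CCNE1 was called against control alone, and its arrays in salt 5 h, 70.6, 107.4 and 47.5, overlapped those in salt 24 h. MCM5, ORC1, CDT1, RFC3, POLE3, RPA2 and RPA3 were called against salt 5 h alone. For RPA2 the means were 365 ± 79.8 in salt 24 h, 719 ± 27.0 in salt 5 h and 574 ± 78.7 in control. The same salt 24 h arrays enter both comparisons, so these counts are not independent of each other. The number of all probe sets called lower in both comparisons was not counted.

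Some genes had further probe sets. There were 21 of these for 18 of the genes, of which 17 passed the filter on dim probe sets. Their log2 change in salt 24 h against control was negative for 16, and 3 were called lower and 0 higher. For the 7 whose gene had been called on its brightest probe set, all 7 were negative and 2 were called, in CDC6 and UHRF1. The third call was the second probe set of GINS3.

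The other genes of the pathway were taken from lists drawn up with earlier results known. Of all 7916 genes in salt 24 h against control, 5.65% were called lower and 5.13% higher without the block. With it, 1590 were called lower and 1575 higher. Of 16 other replication and fork genes tested, 4 fell and 0 rose, with a median log2 change of -0.47. With the block 10 were called lower and 1 higher, which was CTC1, a partner of polymerase alpha at telomeres (log2 change 0.79 ± 0.22, adjusted p = 0.0632 without the block and 0.00631 with it). GMNN, the inhibitor of CDT1, averaged 396 ± 36.6 in salt 24 h and 1136 ± 252 in control (log2 change -1.46 ± 0.19, adjusted p = 0.00543), and PCLAF, a partner of PCNA, averaged 1003 ± 99.9 in salt 24 h and 2767 ± 766 in control (log2 change -1.41 ± 0.20, adjusted p = 0.00684). RNASEH2B, a subunit of the same ribonuclease as RNASEH2A, changed by -1.12 ± 0.17 (adjusted p = 0.00869), and POLE4, a small subunit of polymerase epsilon, by -0.52 ± 0.09 (adjusted p = 0.0148). Of 5 genes of the ATR checkpoint, which responds to stalled forks, 0 were called by limma, with 2 lower at an unadjusted p under 0.05 and 2 lower with the block. Of all 7916 genes, 1175 were lower at that unadjusted level.

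The list of the E2F and RB family, the cyclins and the CDK inhibitors also holds MYC, FBXO5 and CKS1B, which are none of these. Of its 23 genes tested, 6 fell and 1 rose (median log2 change -0.36), and with the block 11 were called lower and 2 higher. MYC, which drives entry into the cycle, averaged 249 ± 35.7 in salt 24 h and 777 ± 119 in control (log2 change -1.58 ± 0.17, adjusted p = 0.00378). MYC was already lower in salt 5 h, with a log2 change of -2.16 against control (adjusted p = 0.00247), the 1 call in that comparison among all the lists named here. FBXO5, an inhibitor of the anaphase-promoting complex, changed by -1.75 ± 0.26 in salt 24 h (adjusted p = 0.00803), CCNA2, the cyclin A of S phase, by -1.31 ± 0.25 (adjusted p = 0.0184), and CKS1B, a subunit of the cyclin-dependent kinases, by -1.02 ± 0.13 (adjusted p = 0.00529). The E2F partners TFDP1 and TFDP2 moved apart, with -0.69 ± 0.15 for TFDP1 (adjusted p = 0.0244) and 1.03 ± 0.17 for TFDP2 (adjusted p = 0.0113).

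The list of histone supply is wider than its name and also holds CDCA7L, a paralog of CDCA7. Of its 12 genes, 3 fell and 0 rose, namely CDCA7L (-1.09 ± 0.14, adjusted p = 0.00583), HAT1, which acetylates new histone H4 (-0.82 ± 0.14, adjusted p = 0.0141), and NASP, a chaperone of histone H3 (-1.21 ± 0.22, adjusted p = 0.0162). With the block 8 of the 12 were called lower. Of 30 genes of mitosis, 6 fell and 0 rose, all 30 changes were negative and the median was -0.82. The called genes were CENPN, ASPM, CDCA8, BUB1, UBE2C and ECT2, with log2 changes of -1.31 to -0.80. With the block, 26 of the 30 were called lower. Salt 24 h against salt 5 h gave 14 lower without it, where 626 of all 7916 genes were called lower. With the block it gave 29 of the 30, where 1752 of all 7916 genes were called lower. In that comparison all 30 changes were negative, with a median of -1.06, against -0.87 for the 52 replication and G1/S genes.

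**Figure D4:**
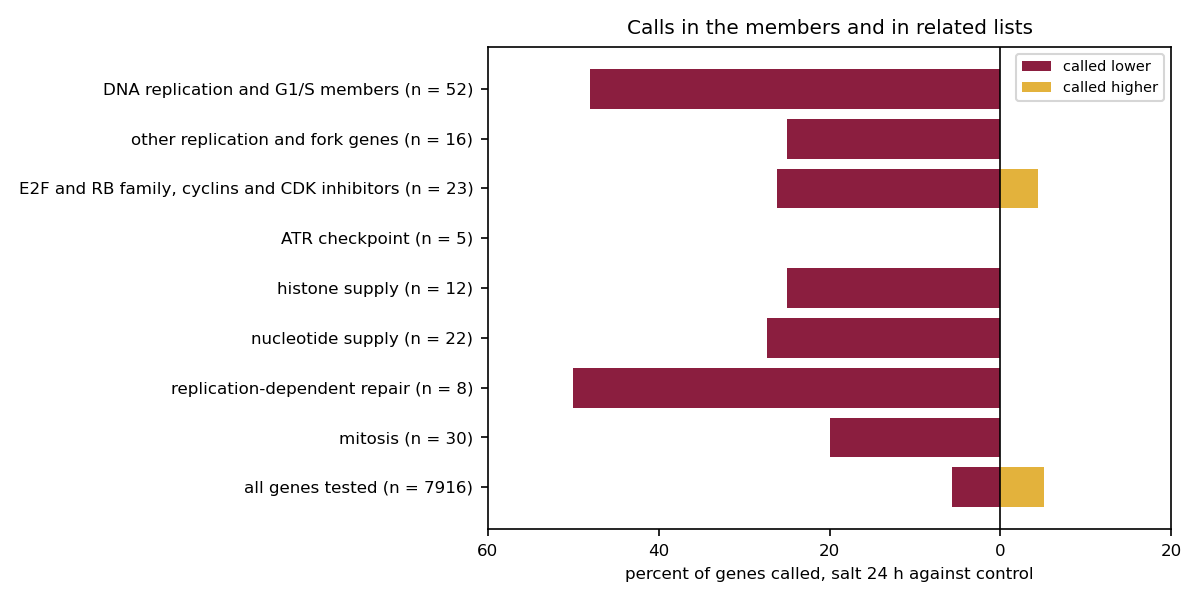
Percent of the tested genes of each list called lower (to the left of 0) and called higher (to the right) in salt 24 h against control, with the number tested in brackets. The 52 replication and G1/S genes have 48.1% lower and all 7916 genes tested have 5.65% lower and 5.13% higher.

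Some other measures differed in the salt 24 h group too, and others did not. The log2 ratio of the 3′ to the 5′ actin control probe sets was 3.73 to 4.02 in salt 24 h, 2.69 to 3.39 in salt 5 h and 2.91 to 3.38 in control, while that of GAPDH was 0.012 to 0.043 in salt 24 h, -0.029 to 0.057 in salt 5 h and -0.18 to 0.0056 in control. The 5′ actin probe set read 15.1 to 22.5 in salt 24 h, 34.1 to 52.4 in salt 5 h and 32.3 to 46 in control. In salt 24 h this was near the filter level of 17.1, so the actin ratio there rests on a dim probe set. Array medians lay between 67.1 and 84.5, and the BioB hybridisation controls were lowest on the replicate 3 arrays (224.0 to 253.1, against 330.1 to 419.4 on the others). Of the nucleus pulposus markers measured, KRT8, KRT18 and KRT19 stayed between 2.1 and 31.8 on all arrays, ACAN ranged from 497.4 to 4026, and 0 of 5 tested were called (1 at an unadjusted p under 0.05; ACAN and HIF1A were higher with the block). The summed intensity of the 7 nucleus pulposus markers measured was 8010.7 to 10114.1 in salt 24 h, above that in salt 5 h (5784.7 to 7143.3) and in control (6136.1 to 7357.8). Of the macrophage and leukocyte markers, 1 of 6 tested was called higher in salt 24 h than in control (CD14, log2 change 1.43 ± 0.19), and the summed intensity of the 8 measured was 445.8 to 482.4 in salt 24 h, 252.9 to 268.7 in salt 5 h and 226.6 to 262.2 in control, with ITGAM at 2.53 ± 1.0 in salt 24 h. Of the fibroblast markers 2 of 4 were called higher (COL12A1 and THY1; sums 13376.4 to 17181.2 in salt 24 h, 10445.3 to 13868.9 in salt 5 h and 11261.8 to 17878.1 in control). The other 2, COL1A2 and COL1A1, had changes of -0.22 and -0.32 and were called lower with the block (adjusted p = 0.0263 and 0.0462) but not without it. Of the muscle markers 1 of 3 was called higher (CKM; sums 2136.9 to 3500.5 in salt 24 h, 1158.9 to 3391.3 in salt 5 h and 911.3 to 1076.1 in control), with MYOD1 at 1.43 ± 1.19 in salt 24 h. ACTA1, another of the muscle markers, had a change of -0.60 and was called lower with the block (adjusted p = 0.00234) but not without it. The endothelial sums overlapped between all groups. The part of these measures in the lower replication genes was not tested.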

How the data were processed

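The 9 arrays hold linear intensities. Per the submitters' processing notes, the authors made these intensities with PLIER, run in Affymetrix Expression Console. Its version and settings, and any normalization between arrays, are not stated in the sources at hand. Of 24016 probe sets outside the array controls, 13292 carry 1 gene symbol in the platform annotation, 86 several, and 10638 are not listed with one. The deposited values were taken as log2(intensity + 16), the dimmest 25% of probe sets by mean were dropped (18012 stayed), and limma 3.58.1 (R 4.3.3) fitted the 3 group means to the 9 arrays together, with an intensity trend in the empirical Bayes step. A fold change on this scale understates the change of dim genes. Adjusted p-values are Benjamini-Hochberg over all probe sets tested within a comparison. The script was tested on simulated data. The number of arrays limits the precision.

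The text names every measured gene of the list, with values per array for the greatest called changes and for genes that differ from the rest of their complex, and other genes of the pathway lists only if called, at most 6 a list by smallest adjusted p. CTC1 (called with the block alone) and the marker genes not called are named outside this rule, after their values were seen. The genes and lists were chosen with earlier results of these data known. The titles number the arrays in each group but do not say that equal numbers belong together. Deviations from the group means correlated at 0.56 to 0.90 between arrays of the same number and at -0.78 to 0.54 between others. Such deviations sum to 0 within a group, which by itself lowers the correlations between numbers. Replicates 1 and 2 of different groups correlated at 0.31 to 0.54, so replicate 3 stands apart and a pairing of numbers 1 and 2 is not established. The block on these numbers, other pseudocounts, filters, scalings and fits, and leaving out arrays were tried as alternatives. No promoter or protein sequences were used here, so the motif description that had been planned was not run.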

Additional observations from a re-analysis of the deposited data

Results flagged for a closer look

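For 31 of the 52 genes the change in salt 24 h differed from the change in salt 5 h, by the limma test of salt 24 h minus salt 5 h (adjusted p = 0.00154 to 0.0480). These are the same 31 calls as in the comparison of salt 24 h with salt 5 h above. It called 6.15% of all probe sets lower and 8.01% higher. The shared control arrays cancel in the difference but enter the estimate of spread. All 31 differences, given here on the log2 scale, were negative. In the MCM helicase, the difference was -1.38 for MCM3, -1.27 for MCM4, -1.34 for MCM5 and -0.87 for MCM6. In the origin recognition complex, the difference was -1.59 for ORC1 and -0.68 for ORC5. Among the loading and firing factors, the difference was -1.62 for CDC6, -1.47 for CDT1, -0.84 for CDC45 and -1.47 for GINS4. For the clamp and its loader, the difference was -1.31 for PCNA, -0.82 for RFC2, -1.05 for RFC3 and -1.13 for RFC4. Among the polymerase subunits, the difference was -0.87 for POLD3, -2.03 for POLE2 and -1.07 for POLE3. Among the single-strand binding and lagging strand genes, the difference was -0.97 for RPA2, -0.64 for RPA3 and -1.54 for FEN1. In deoxynucleotide synthesis, the difference was -1.23 for RRM1, -2.58 for RRM2, -0.91 for TYMS, -1.33 for TK1 and -1.50 for DTYMK. Among the genes that copy chromatin and methylation, the difference was -2.29 for UHRF1, -0.82 for DNMT1, -1.37 for CHAF1B and -0.71 for SLBP. Among the G1/S control genes, the difference was -0.87 for CCNE2 and -2.28 for CDCA7. In CCNE2 both changes against control were negative, at -1.67 in salt 24 h and -0.80 in salt 5 h, and in RRM2 they were -2.45 in salt 24 h and 0.13 in salt 5 h. The calls of 12 of these genes held in all 9 refits that each left out 1 array: CDC6, GINS4, PCNA, RFC2, RFC4, POLE2, FEN1, RRM1, RRM2, DTYMK, UHRF1 and CDCA7. How many of all probe sets held a call in all 9 refits was not counted, here or against control.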

How the results depend on the processing

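No called value changed sign under any alternative run, and 0 genes were called higher in salt 24 h against control, in salt 5 h against control or in salt 24 h against salt 5 h under any of them. The count called lower in salt 24 h against control, 25 with a median of -0.93, was 40 with the replicate block and 15 when limma was fitted to the 6 arrays compared, and lay between 19 (no filter on dim probe sets) and 27 (quantile normalization) under the other pseudocounts, filters, scalings and fits. Lower calls over all probe sets, 779 in the main fit, were 3150 with the block and 386 in the fit to 6 arrays. They were 662 without the filter and 780 with quantile normalization. Averaging the probe sets of a gene also gave 25, of which 21 were among the 25 of the brightest probe sets. With a pseudocount of 64 the median was -0.77. Leaving out 1 array gave 7 to 24 genes and medians of -1.01 to -0.74. The refit with 7 genes called 149 of all probe sets lower, and that with 24 genes called 706. In salt 5 h against control the count was 0 except for 2 with the replicate block, and leaving out 1 array gave 0 to 1 genes and medians of -0.09 to 0.17. The block called 614 of all probe sets lower, and the refit with 1 gene called 77. In salt 24 h against salt 5 h the count of 31 was 43 with the replicate block and 24 in the fit to the 6 arrays compared, and leaving out 1 array gave 12 to 28 genes. Lower calls over all probe sets, 1108 in the main fit, were 3531 with the block and 820 in the fit to 6 arrays. They were 370 and 1075 in the refits with 12 and 28 genes. The median of -0.87 was -0.75 with a pseudocount of 64 and -0.99 with the arrays centred on their medians, and leaving out 1 array gave -0.98 to -0.81. The replicate block ended no call, and beyond the genes named with it above it changed the call of 12 genes in salt 24 h against salt 5 h, all to lower. Leaving out a replicate number in all groups was chosen after seeing the data. Without replicate 1, limma called 0 genes lower in salt 24 h against control and 0 against salt 5 h, as it did for all probe sets. Without replicate 2 it called 2 and 1, with 4 and 1 of all probe sets lower. Without replicate 3 it called 25 and 33, with 748 and 1475 of all probe sets lower. The median without replicate 3 was -0.82 against control. These refits hold 2 arrays a group, and the cause of the gap between them was not tested. Of 1138 values of single genes under the alternatives in salt 24 h against control, 168 lost and 38 gained a call. Centring moved the all-probe median by -0.12 in salt 24 h against salt 5 h. Relative to that median the listed genes stood at -0.93 as deposited. Centring cannot change this value, since it shifts all probe sets of an array alike. With quantile normalization, which can change it, the value was -0.93. Dim genes such as CDC6 and ORC1 depend on the pseudocount in size.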

Other observations

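Genes that supply the nucleotide pools upstream of ribonucleotide reductase were also lower after 24 h in salt. Of 22 tested, 6 fell and 0 rose in salt 24 h against control (27.3%, against 5.65% of all genes called lower), with a median log2 change of -0.64 and 21 negative changes. With the replicate block 18 were called lower, where 1590 of all 7916 genes were. DHODH, the mitochondrial enzyme of pyrimidine synthesis, averaged 67.5 ± 16.9 in salt 24 h and 267 ± 85.4 in control (SD, n = 3 each; log2 change -1.73 ± 0.33, adjusted p = 0.0182). The folate enzymes MTHFD2 and MTHFD1 changed by -1.14 ± 0.18 (adjusted p = 0.0094) and -1.11 ± 0.27 (adjusted p = 0.0401). In purine synthesis, IMPDH1, which makes the precursor of guanine nucleotides, changed by -0.85 ± 0.15 (adjusted p = 0.0145) and PAICS by -0.89 ± 0.21 (adjusted p = 0.0357). CMPK1, a pyrimidine nucleotide kinase, changed by -0.76 ± 0.17 (adjusted p = 0.0278). In salt 5 h against control, 0 of the 22 were called by limma, with 1 lower at an unadjusted p under 0.05 and 1 with the block.

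Of 8 genes of replication-dependent repair tested, 4 fell and 0 rose in salt 24 h against control (50%, against 5.65% of all genes called lower). The median log2 change was -0.75, and all 8 changes were negative. FANCI, a subunit of the Fanconi anaemia clamp, averaged 140.4 ± 29.3 in salt 24 h and 382 ± 78.9 in control (log2 change -1.34 ± 0.21, adjusted p = 0.0097). UNG, which removes uracil from DNA, averaged 343 ± 28.1 in salt 24 h and 815 ± 225 in control (log2 change -1.18 ± 0.25, adjusted p = 0.0268). RAD18, a ubiquitin ligase of PCNA, changed by -0.97 ± 0.22 (adjusted p = 0.0322), and WRN, a helicase and nuclease, by -0.83 ± 0.21 (adjusted p = 0.0466). With the replicate block 6 of the 8 were called lower, where 1590 of all 7916 genes were.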
